A study of Mus musculus with 44 samples.

Results

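RIM, RAB3 and MUNC13 proteins act together at the presynaptic active zone, where neurotransmitter vesicles are docked and made ready for release. RIM proteins are scaffolds of the release site, RAB3 proteins are small GTPases on the vesicle membrane, and MUNC13 proteins prime vesicles for fusion. Full-length RIM binds vesicle-bound RAB3 and MUNC13 and gathers calcium channels, and in the hippocampus these families are known for setting release probability and for presynaptic plasticity. The 10 genes described here are the mouse paralogues *Rims1*, *Rims2*, *Rims3* and *Rims4*, *Rab3a*, *Rab3b* and *Rab3c*, and *Unc13a*, *Unc13b* and *Unc13c*. They were taken by symbol from the 55335 genes of a table of read counts, and all 10 were found. The set was proposed because of their levels and of their differences between early-life exercise (ELE) and sedentary mice in these libraries, so both are described below without a test.

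The counts came from translating ribosome affinity purification followed by sequencing (TRAP-seq) of hippocampi of male Emx1-NuTRAP mice. In these mice Cre recombinase from the Emx1 locus switches on the NuTRAP cassette, which labels ribosomes and nuclear envelopes, so that capture is directed at cells of the Emx1 lineage, which in the hippocampus are mostly excitatory neurons and also include astrocytes. Every group carried both alleles. ELE mice had a running wheel in the cage from postnatal day 21 to postnatal day 41, and sedentary mice did not. Each of the 20 libraries was from 1 mouse: 4 ELE and 4 sedentary libraries from simultaneous isolation of nuclei and RNA from both hippocampi (SIT), and 3 ELE and 3 sedentary libraries from the left and as many from the right hippocampus, isolated for RNA alone (separate isolation). A mouse with separate isolation gave 1 hemisphere, so left and right libraries came from different mice. In bulk RNA, fewer cells of a type and less RNA per cell cannot be told apart.

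Libraries held 45895097 to 65767802 counts. Excitatory neuron markers were high in all of them, with *Slc17a7* at no less than 2822 CPM (counts scaled to a common library size with TMM factors) and *Emx1* at 13.8 to 32.8 CPM, while markers of other cells were present too. The astrocyte marker *Gfap* was at 701 to 4061 CPM, the oligodendrocyte marker *Mbp* at 1088 to 2058 CPM, and 6 oligodendrocyte markers summed to 2312 to 5021 CPM. Choroid plexus markers summed to 17.3 to 1277 CPM. 3 SIT libraries stood apart: NT6.304 among the ELE mice, and NT7.2.3 with NT7.2.4 among the sedentary. Their summed level of 8 inhibitory interneuron markers was 999.5 to 1179 CPM, against 137 to 167 CPM in the other 5 SIT libraries. Mitochondrial genes took 8.64% and 9.64% of the counts in the 2 sedentary ones, against at most 0.523% in the 17 libraries kept. The study compared 3 ELE with 2 sedentary SIT libraries, without these 3, and that choice is the one used here, with values for all 8 beside it.

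*Rims3* and *Rab3b*, the pair that differed most between ELE and sedentary mice in the 5 SIT libraries compared, lie on the same chromosome. *Unc13b* lies on it too (chr4:43058953-43264871, plus strand), with a log2 fold change of only -0.11 in those libraries. *Rims3* (ENSMUSG00000032890.17) spans chr4:120854816-120896579 and *Rab3b* (ENSMUSG00000003411.10) spans chr4:108879063-108943324, both on the plus strand of GRCm38. The 250 bases before the RefSeq start of each gene (GRCm38.p6, plus strand) are shown because these members were lower together, at chr4:120854549-120854798 for *Rims3* and chr4:108878820-108879069 for *Rab3b*. Capitals mark GC boxes, the letters GGGCGG on either strand.
Rims3: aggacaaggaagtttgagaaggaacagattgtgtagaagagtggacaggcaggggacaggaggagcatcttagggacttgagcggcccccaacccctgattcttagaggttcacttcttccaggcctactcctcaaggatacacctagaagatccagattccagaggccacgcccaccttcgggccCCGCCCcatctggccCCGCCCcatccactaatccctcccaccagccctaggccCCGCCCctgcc
Rab3b: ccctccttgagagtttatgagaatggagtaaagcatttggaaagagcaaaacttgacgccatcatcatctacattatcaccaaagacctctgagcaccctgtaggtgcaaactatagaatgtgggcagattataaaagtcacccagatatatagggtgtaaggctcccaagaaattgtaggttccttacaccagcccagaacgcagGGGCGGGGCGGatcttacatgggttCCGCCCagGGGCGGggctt
The *Rims3* window held 3 GC boxes and the *Rab3b* window 4, including a pair that share their edge. A GC box was in 32.7% of the 32851 promoters of the table. The 8 members found there had 9 windows, and all but 1 of *Rab3a* held a GC box. The letters TGACG of the core of the cyclic AMP response element were in 17.8% of all promoters. They were in the *Rab3b* window, in 1 window of *Rab3a* and in that of *Unc13a*, but not in that of *Rims3*. A match is a run of letters, and binding was not measured here.

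Levels of the paralogues differed widely when expressed per length, as CPM per kilobase of merged exon (CPM per kb). Among the RAB3 genes, *Rab3a*, the main RAB3 of central synapses, had a median of 287 CPM per kb (235 to 368 over 20 libraries). It was above *Rab3c* in every library, and the ranges did not overlap. *Rab3c* followed at 30.9 CPM per kb (27.4 to 55.8), and *Rab3b* was at 3.32 CPM per kb (1.31 to 13.4). As a share of the family's summed level, *Rab3a* took a median of 89.5%, *Rab3c* 9.57% and *Rab3b* 0.991%.

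Among the RIM genes, *Rims1*, which encodes a full-length RIM, was highest at 20.9 CPM per kb (18.1 to 30.9). *Rims4* had a median of 11.5 CPM per kb (7.21 to 17.2), *Rims2*, the other gene for a full-length RIM, 6.50 CPM per kb (5.19 to 8.92), and *Rims3* 4.71 CPM per kb (1.92 to 9.37). The shares of the family were 48.1%, 24.95%, 14.5% and 11.03%. *Rims3* and *Rims4* encode short gamma forms with the C-terminal C2 domain and without the parts of RIM that bind RAB3 and MUNC13. Their longest annotated coding lengths were 921 and 807 bases, against 4272 for *Rims1* and 4716 for *Rims2*.

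Among the MUNC13 genes, *Unc13a*, which encodes Munc13-1, the main priming factor of excitatory forebrain synapses, was at 20.5 CPM per kb (14.9 to 27.98) and took a median of 93.7% of the family. *Unc13b* was at 0.893 CPM per kb (0.716 to 1.45). *Unc13c*, known for its cerebellar expression, was at 0.366 CPM per kb (0.156 to 1.19) and had 74 to 577 counts per library. *Rims1* and *Unc13a* could not be put in order, since *Rims1* was the higher of the pair in 10 of 20 libraries. *Rims2* was above *Rims3* in 15 of 20 libraries, *Rims3* above *Rab3b* in 14, and *Unc13b* above *Unc13c* in 18. Every other neighbour in the order kept its place in all 20 libraries, although the ranges of neighbours overlapped for each pair after *Rab3a* and *Rab3c*. With the longest transcript as the length, *Rims2* rose to 14.1 CPM per kb, above *Rims4*.

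**Figure D1:**
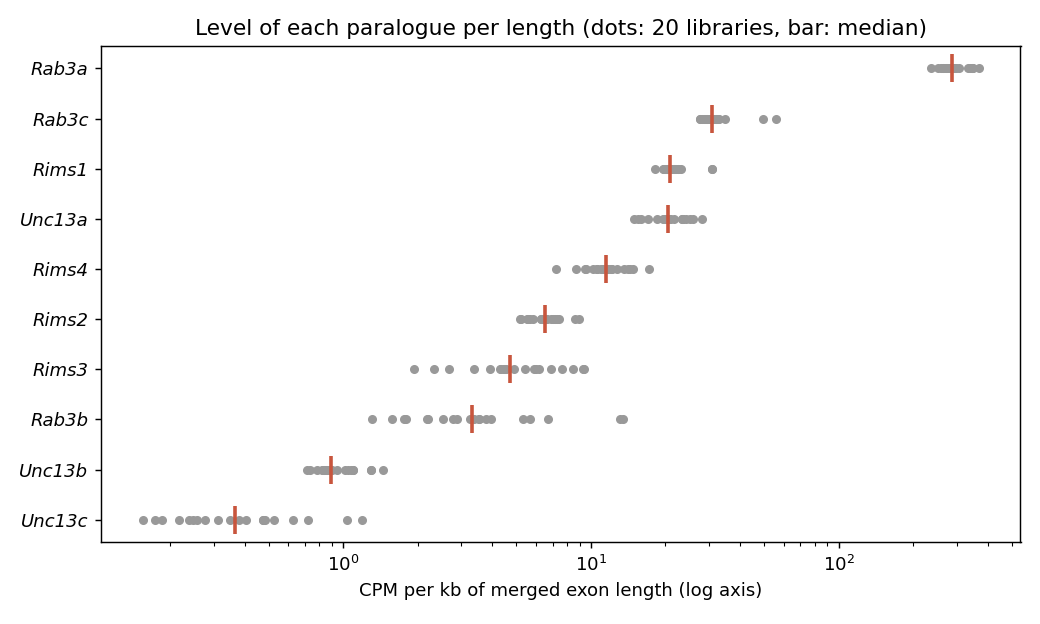
Level of each paralogue in CPM per kb of merged exon length on a log axis, with a dot for each of the 20 libraries and a bar at the median. *Rab3a* stands above the others at a median of 287, and *Rab3b* and *Unc13c* have wide ranges.

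Mice of 1 group differed far more in some paralogues than in others. The spread was taken as the standard deviation of log2(CPM + 0.5) within groups, pooled over the 6 groups of the 17 libraries compared. It was 0.65 for *Rab3b*, 0.48 for *Unc13c* and 0.48 for *Rims3*, against a median of 0.18 over the 14225 genes averaging 1 CPM or more. These members exceeded 98.4%, 95.2% and 94.96% of those genes. At the other end, *Rab3c* (0.09), *Rab3a* (0.10) and *Rims1* (0.10) exceeded 9.24%, 11.2% and 12.6% of them. In the 12 separately isolated libraries the spread was 0.83 for *Rab3b*, 0.60 for *Rims3* and 0.58 for *Unc13c*, no smaller than over the 17.

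**Figure D2:**
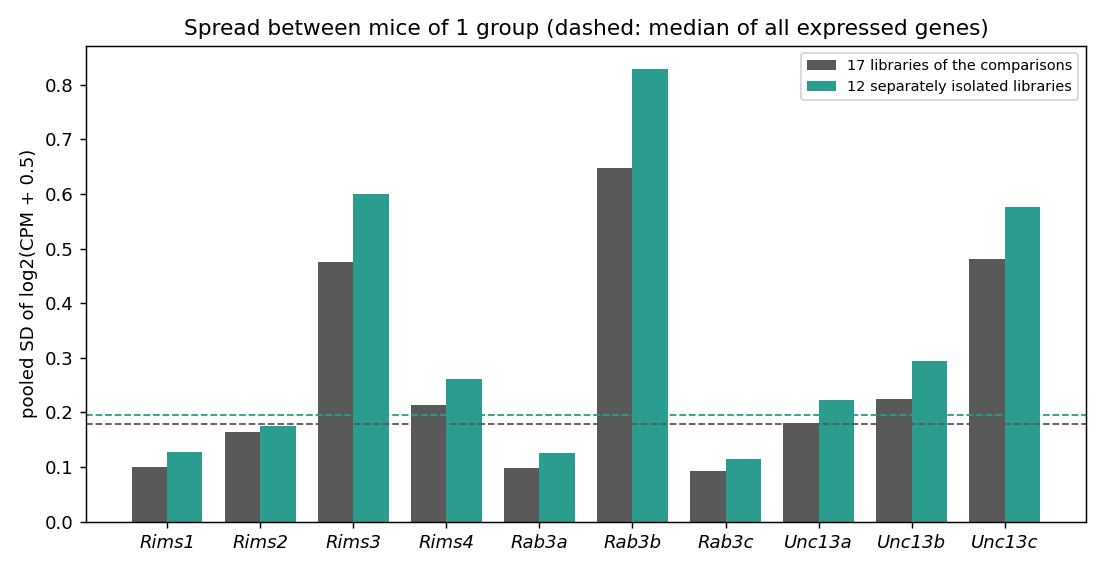
Pooled standard deviation of log2(CPM + 0.5) between mice of 1 group for each paralogue, in the 17 libraries compared and in the 12 separately isolated ones, with dashed lines at the median of all expressed genes. *Rims3*, *Rab3b* and *Unc13c* stand above the dashed lines, and *Rims1*, *Rab3a* and *Rab3c* below them.

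The comparison of ELE with sedentary mice asked how exercise during adolescence altered gene expression in these neurons. In SIT libraries *Rims3* was at 26.9, 15.3 and 18.6 CPM in the 3 ELE mice and at 46.9 and 43.0 CPM in the 2 sedentary mice. Every ELE library was below both sedentary libraries. The log2 fold change was -1.15 ± 0.21 (SE), or 2.22-fold lower in ELE. In the libraries left out, *Rims3* was at 35.4 CPM in the ELE mouse and at 74.7 and 73.8 CPM in the sedentary mice, and over all 8 libraries the log2 fold change was -1.29 ± 0.28.

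*Rab3b* was at 7.74, 8.91 and 12.4 CPM in ELE and at 23.6 and 14.0 CPM in sedentary SIT mice. The groups did not overlap, though the highest ELE and the lowest sedentary library were close. The log2 fold change was -0.96 ± 0.26, or 1.94-fold lower in ELE. The libraries left out were at 7.65 CPM in ELE and at 47.3 and 46.3 CPM in sedentary mice, and with them the log2 fold change was -1.83 ± 0.36. All 3 had the high interneuron marker sums given above. The sedentary pair, NT7.2.3 and NT7.2.4, also had microglia markers at 179 and 189 CPM, endothelial markers at 18.4 and 18.3 CPM and red blood cell markers at 198 and 570.1 CPM, against 9.05, 1.65 and 12.2 CPM in the ELE mouse NT6.304. The part of other cells in these values was not tested.

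The other 8 members differed less in the 5 SIT libraries. *Unc13c* was at 3.08, 1.53 and 2.10 CPM in ELE and 4.17 and 2.43 CPM in sedentary mice, with overlapping groups and a log2 fold change of -0.56 ± 0.39. That estimate was -0.12 without the sedentary mouse NT6.305 and -0.90 without the sedentary mouse NT6.306. *Rims4* (-0.25 ± 0.14), *Rab3c* (-0.16 ± 0.09) and *Unc13a* (0.21 ± 0.11) had groups that did not overlap, and *Rims2* was at -0.22 ± 0.14. With all 8 libraries *Unc13a* was at -0.01 ± 0.16 and *Rims4* at -0.28 ± 0.22. *Rims1* (-0.03 ± 0.10), *Rab3a* (-0.04 ± 0.08) and *Unc13b* (-0.11 ± 0.16) were within about 1 SE of no difference. With all 8 libraries *Rims1* was further from 0, at -0.33 ± 0.16, with *Rab3a* at -0.04 ± 0.11 and *Unc13b* at 0.02 ± 0.24. Groups thus did not overlap for 5 of 10 members, where 22.1% of all genes tested did not overlap in this small design, and over all 8 libraries for 3 of 10 (*Rims3*, *Rab3b* and *Rab3c*), where 4.79% did not.

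The study's threshold, an unadjusted p under 0.05 with an absolute log2 fold change above about 0.39, was passed by *Rims3* and *Rab3b* and by 3.61% of all genes. With all 8 libraries it was passed by *Rims2*, *Rims3*, *Rab3b*, *Rab3c* and *Unc13c*, all lower in ELE, and by 7.67% of all genes. In that fit *Unc13c* was at -1.59 ± 0.44, *Rab3c* at -0.55 ± 0.18 and *Rims2* at -0.44 ± 0.15. Since the set was chosen on this contrast, nothing is read from these counts. After Benjamini-Hochberg adjustment no gene passed 0.05 with edgeR in the 5 libraries after its filter on low counts, where 1000 of 18238 genes had an unadjusted p under 0.05. Without that filter edgeR called 36 genes higher and 69 lower, and DESeq2 called 7 higher and 7 lower. *Rims3* was among the lower genes of both and *Rab3b* among those of the former, and nothing is read from these calls either.

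The SIT mice carry numbers that start with NT6, NT7.2 or TG7.4, and NT6 alone was in both groups. The 4 NT6 mice include NT6.304, a library left out above, and not the TG7.4 mice. Among them the log2 fold change was -0.53 ± 0.19 for *Rims3* and -1.28 ± 0.30 for *Rab3b*, so the difference in *Rims3* was smaller than over the 5 libraries and that in *Rab3b* larger. Signs turned in that fit for *Rims4* (0.23 ± 0.22), *Unc13b* (0.38 ± 0.31) and *Rims1* (0.02 ± 0.12), and the other members kept theirs. Without the sedentary mouse NT6.305, *Rab3b* was at -0.53 and no longer past the study's threshold, whereas *Rims3* stayed between -1.41 and -0.98 whichever library was left out. Other RNA moved with the groups in the same 5 libraries. The 5 red blood cell markers summed to 3.88 to 12.4 CPM in ELE and 26.7 to 30.7 CPM in sedentary mice, with 4 of 5 past the study's threshold. The 6 choroid plexus markers summed to 129 to 579.5 CPM and 589 to 672 CPM, with 3 of 6 past it. The 6 dentate granule cell markers summed to 627 to 807 CPM in ELE and 549 to 636 CPM in sedentary mice, with *Prox1* and *Dsp* past it. Their part in the difference of *Rims3* and *Rab3b* was not tested.

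**Figure D3:**
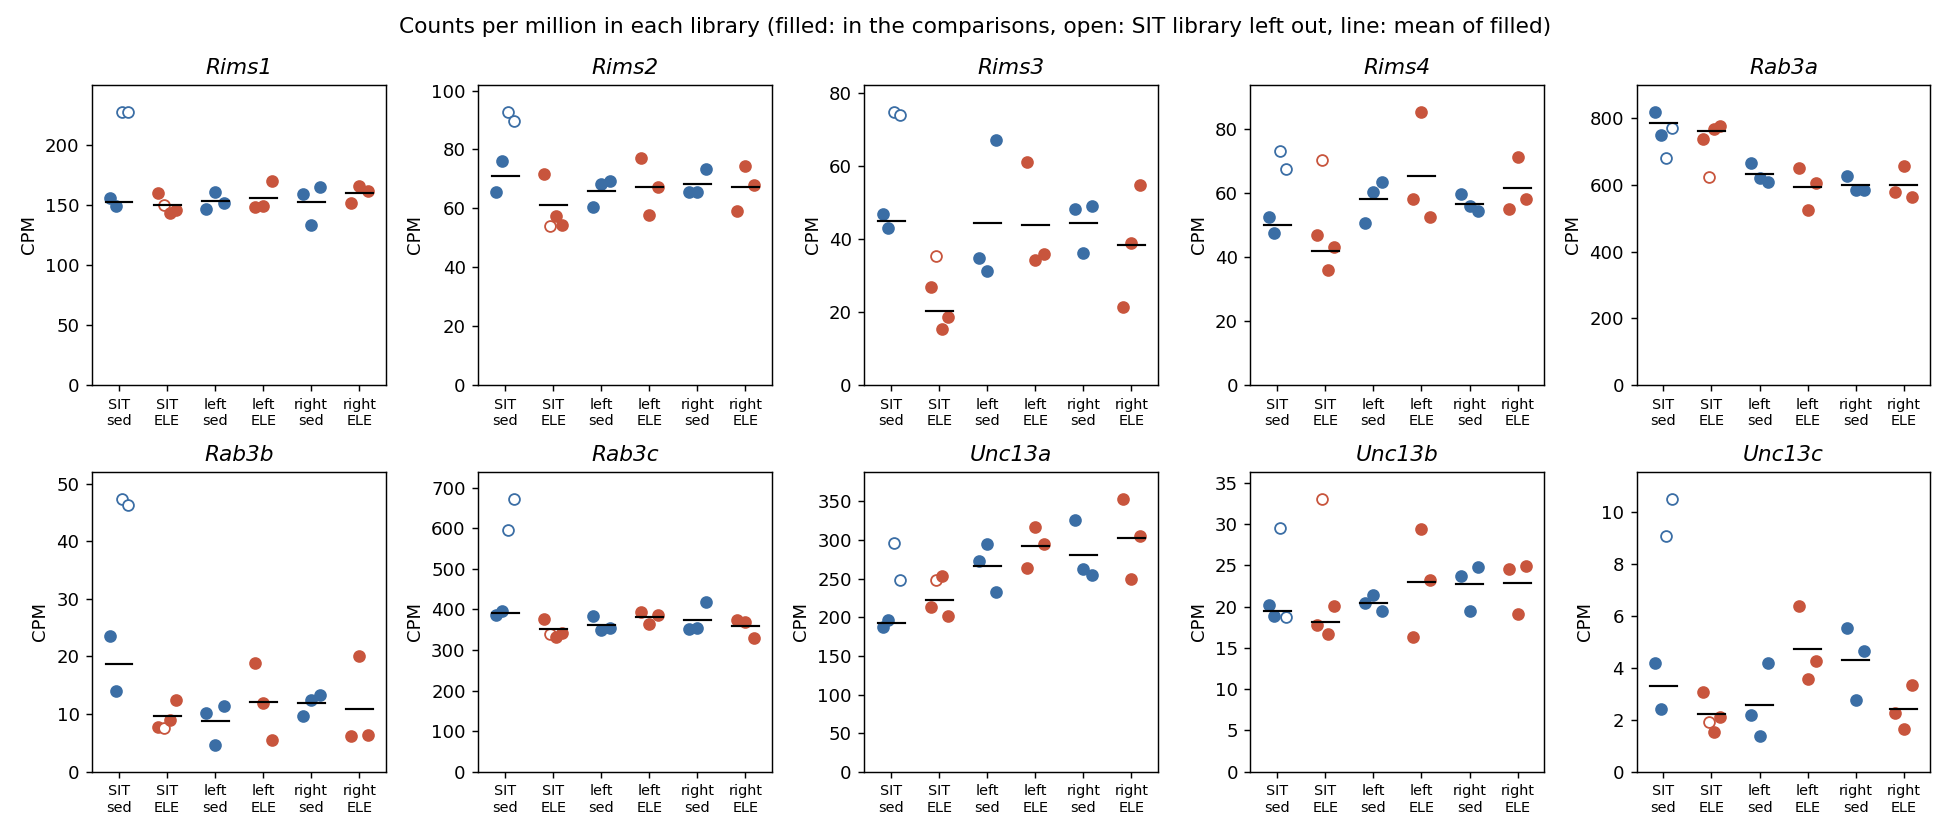
CPM of each paralogue in every library by isolation or hemisphere and exercise (ELE red, sedentary, sed, blue), on axes that start at 0. Filled points are the 17 libraries compared, open points the 3 SIT libraries left out, and lines the mean of the filled points. *Rims3* and *Rab3b* are lower in ELE than in sedentary SIT libraries, and their groups overlap on the left and on the right.

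In the left hippocampus *Rims3* was at 61.0, 34.3 and 35.9 CPM in ELE and at 34.6, 31.2 and 67.2 CPM in sedentary mice. Each group held 1 high library and the groups overlapped, with a log2 fold change of -0.02 ± 0.32. In the right hippocampus it was at 21.4, 38.9 and 54.8 CPM in ELE and at 48.1, 36.2 and 49.0 CPM in sedentary mice, with a log2 fold change of -0.21 ± 0.27. The ELE mice on the right held both the lowest and the highest value.

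*Rab3b* was at 18.8, 11.9 and 5.56 CPM in ELE and 10.1, 4.62 and 11.5 CPM in sedentary mice on the left, and the log2 fold change was 0.47 ± 0.45. On the right it was at 6.21, 20.1 and 6.3 CPM in ELE and 9.76, 12.5 and 13.3 CPM in sedentary mice, and the log2 fold change was -0.12 ± 0.40. Both comparisons overlapped. Without the right ELE mouse TG9.1.3, the highest, *Rab3b* on the right was at -0.92 and past the study's threshold. On the left its log2 fold change ran from -0.01, without TG7.3.2, to 0.81, without TG9.2.2.

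*Unc13c* was at 6.37, 3.57 and 4.25 CPM in ELE and 2.17, 1.37 and 4.18 CPM in sedentary mice on the left, and the log2 fold change was 0.88 ± 0.41. On the right it was at 2.25, 1.63 and 3.35 CPM in ELE and 5.53, 2.74 and 4.63 CPM in sedentary mice, and the log2 fold change was -0.83 ± 0.33. The estimates were of opposite sign and the groups overlapped in both. As an exercise by hemisphere term over the 12 separate libraries, their difference was 1.71 ± 0.57. It was 1 of 10 such terms fitted, and it did not pass an adjusted p under 0.05 with edgeR. The level was low, so that each of these values rests on few counts beside those of the other members.

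The remaining 7 members were within 0.17 of 0 on the log2 scale on both sides. The left ELE mouse TG9.1.4 had an interneuron marker sum of 459 CPM, against 118 to 135 CPM in the other 5 left libraries, and of the 8 markers *Npy* passed the study's threshold, higher in ELE. The same library held the highest left *Rims4* at 85.2 CPM and *Unc13b* at 29.5 CPM. Without it *Rims4* on the left went from 0.17 to -0.07 and *Unc13b* from 0.17 to -0.05. The part of other cells in the left values was not tested. No member had groups that did not overlap, where 10.8% of left and 7.69% of right comparisons over all genes did not. No member passed the study's threshold on the left, where 2.05% of genes did, and *Unc13c* was the 1 member on the right, where 1.96% did. The right *Unc13c* was no longer past it without TG9.1.3, TG9.2.3, TG7.3.1 or TG7.3.3, at -1.15 to -0.61 over the 6 fits that leave out a library. The left *Unc13c* was past it without TG9.1.4 (1.04), the library high in interneuron markers, or without TG9.2.4 (1.42), and also with DESeq2, with no filter on low counts and with the mouse-number block. Without the right ELE mouse TG9.2.1, the right *Rims3* was past it too, at -0.56. On the right the 6 choroid plexus markers summed to 17.3 to 42.8 CPM in ELE and 35.5 to 1164 CPM in sedentary mice, with 5 of the 5 tested past the threshold and lower in ELE. The red blood cell markers summed to 3.95 to 4.87 CPM and 4.90 to 11.5 CPM, with 3 of the 4 tested past it. The 5 endothelial markers summed to 25.6 CPM in the sedentary mouse TG7.3.3, against 1.51 to 3.60 CPM in the other 5 right libraries, and *Cldn5* was past the threshold and lower in ELE. TG7.3.3 also held the highest right *Unc13c*, which was at -0.61 without it. The part of these cells in the right *Unc13c* was not tested.

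**Figure D4:**
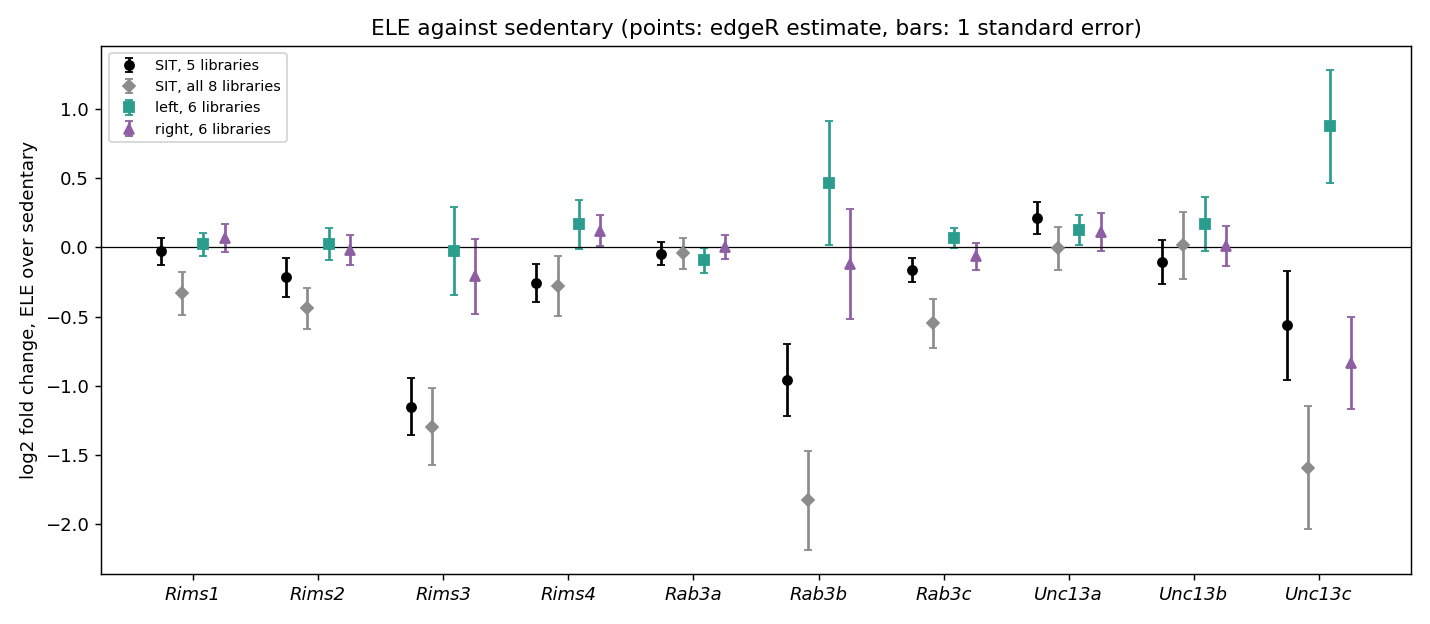
Log2 fold change of ELE over sedentary for each paralogue, with bars of 1 SE, in the 5 SIT libraries compared, all 8 SIT libraries, and the 6 left and 6 right libraries. *Rims3* and *Rab3b* are below 0 in SIT at -1.15 and -0.96, and *Unc13c* is at 0.88 on the left and -0.83 on the right.

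Of 61 other listed genes of the release machinery, 4 passed the study's threshold in SIT libraries, all lower in ELE, where 3.61% of all genes passed. On the left 1 passed, where 2.05% of all genes did, and on the right none, where 1.96% did. Their median log2 fold change was 0.01 in SIT, against 0.00 over all genes. *Baiap3*, a relative of the MUNC13 genes that acts in dense-core vesicle and endosome traffic, was at 0.982 to 1.39 CPM in ELE and at 1.43 and 8.31 CPM in sedentary SIT mice (-2.09 ± 0.59). On the left it was at 0.629 to 8.35 CPM in ELE and 0.462 to 1.39 CPM in sedentary mice (1.91 ± 0.83), and on the right at 0.44 ± 0.52. *Cplx3*, a complexin, which clamps and promotes fusion, was at -1.10 ± 0.28 in SIT, and *Syt9*, a calcium sensor for release, at -0.93 ± 0.24. *Stx1a*, a plasma membrane SNARE, was at -0.39 ± 0.10, and at -0.06 ± 0.16 with all 8 libraries. None of the 13 active zone scaffolds and none of the 7 presynaptic calcium channel subunits passed.

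The contrasts of hemispheres and of isolations were tested across all genes. Neither is a contrast that chose the set, but *Rims3* and *Rab3b* were picked for their values in the SIT libraries, which the isolation contrast shares, so they are left without a test there. Left and right hippocampi did not differ detectably in any of the 10 members over 12 libraries, with exercise as a term. No gene of 18283 passed an adjusted p under 0.05 with edgeR (0% called), where 457 had an unadjusted p under 0.05, none of them a member, and DESeq2 called none. The log2 difference of left over right had narrow intervals for *Rab3a* at 0.03, with an interval of -0.10 to 0.16, for *Rims1* at -0.02 (-0.15 to 0.12) and for *Rab3c* at 0.02 (-0.11 to 0.15). The intervals were wide for *Rims3* at 0.09 (-0.40 to 0.59), for *Rab3b* at -0.14 (-0.87 to 0.59) and for *Unc13c* at 0.12 (-0.67 to 0.90). The value for *Unc13c* averages -0.74 ± 0.39 in sedentary and 0.97 ± 0.33 in ELE mice, neither of which passed after adjustment. The intervals are 95% intervals from the SE and the t distribution with edgeR's total degrees of freedom.

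SIT and separately isolated libraries differed in 3 of the other 8 members over 17 libraries, 1 higher and 2 lower in SIT, where 25.5% of all genes were called, 12.1% higher and 13.4% lower. *Rab3a* was at 740 to 819 CPM in the 5 SIT libraries and 524 to 665 CPM in the 12 separate ones. The 3 SIT libraries left out were at 625.5 (NT6.304), 679.8 and 771.7 CPM, the first within the separate range. The log2 fold change of *Rab3a* was 0.36 ± 0.05 (edgeR, adjusted p = 2.56e-05). It was 0.35 in sedentary mice alone and 0.35 in ELE mice alone, and 0.29 with all 8 SIT libraries (adjusted p = 0.000408).

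*Unc13a* was at 188 to 253 CPM in SIT and 232 to 353 CPM in separate libraries, with overlapping ranges. Its log2 fold change was -0.45 ± 0.08 (edgeR, adjusted p = 0.000382), and -0.31 with all 8 SIT libraries (adjusted p = 0.0155). *Rims4* was at 35.8 to 52.5 CPM in SIT and 50.5 to 85.2 CPM in separate libraries (-0.41 ± 0.11, adjusted p = 0.00605). That call was lost with all 8 SIT libraries, where the log2 fold change was -0.15 (adjusted p = 0.463), and in sedentary mice alone at -0.20 (adjusted p = 0.192). *Rims3*, with no test, was at -0.53 ± 0.23, at 0.02 ± 0.23 in sedentary mice and at -1.02 ± 0.28 in ELE mice.

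*Rab3b*, with no test, was at 0.28 ± 0.30, 0.87 ± 0.29 in sedentary mice and -0.25 ± 0.40 in ELE mice. *Rims1*, *Rims2* and *Rab3c* were within 0.05 of 0, and *Unc13b* (-0.25 ± 0.11, adjusted p = 0.0997) and *Unc13c* (-0.39 ± 0.31) did not pass, although *Unc13b* did without the left ELE mouse TG7.3.2 (-0.29, adjusted p = 0.0295). SIT libraries came from other mice than separate libraries and held tissue of both hemispheres, so isolation, cohort and tissue cannot be told apart. Excitatory neuron markers summed to 6606 to 7687 CPM in the 5 SIT libraries and to 7933 to 10030 CPM in separate libraries, which did not overlap, and astrocyte markers to 3334 to 5380 CPM and 4880 to 8283 CPM. The mitochondrial share was 0.245% to 0.523% in those SIT libraries and 0.0704% to 0.122% in separate ones, again without overlap. Their part in these differences was not tested.

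**Figure D5:**
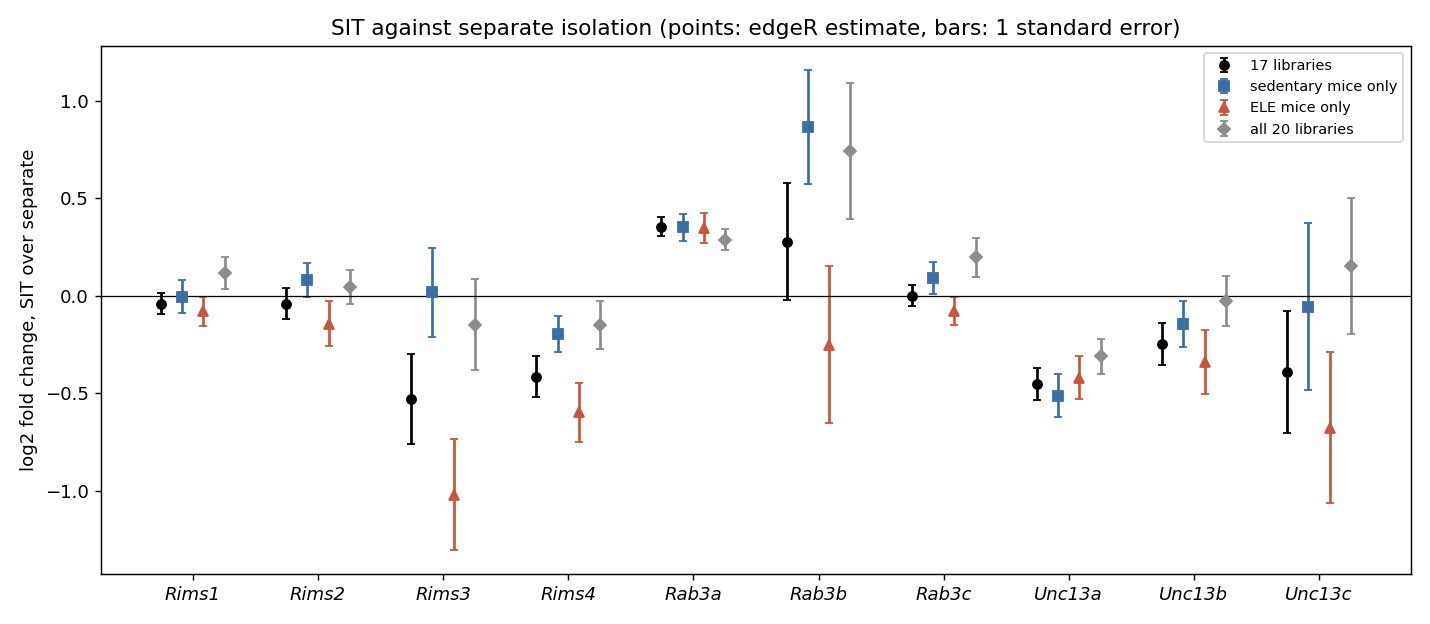
Log2 fold change of SIT over separate isolation for each paralogue, with bars of 1 SE, over 17 libraries, in sedentary mice alone, in ELE mice alone and over all 20 libraries. *Rab3a* is above 0 and *Unc13a* below 0 in all 4, while *Rims3* is at 0.02 in sedentary and -1.02 in ELE mice, and *Rab3b* at 0.87 and -0.25.

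Around the members, 28 of the 61 other release genes passed the same test, 13 higher and 15 lower in SIT, where 12.1% of all genes were higher and 13.4% lower. SNARE proteins and fusion machinery, the membrane fusion engine and its recycling factors, had 9 of 16 higher and none lower, with a median log2 fold change of 0.21, against -0.01 over all genes. *Snap25* was at 0.41 ± 0.05 (adjusted p = 5.69e-06), *Napb* at 0.35 ± 0.04 (adjusted p = 5.16e-06) and *Vamp2* at 0.31 ± 0.04 (adjusted p = 1.93e-05). Active zone scaffolds had 1 of 13 higher (*Ppfia2*, a liprin) and 6 lower, with a median of -0.17. *Tspoap1*, a RIM-binding protein, was at -0.54 ± 0.08 (adjusted p = 2.86e-05), *Bsn*, or bassoon, at -0.42 ± 0.09 (adjusted p = 0.00148) and the liprin *Ppfia3* at -0.41 ± 0.06 (adjusted p = 1.79e-05).

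Calcium sensors and vesicle proteins were divided, with 3 of 12 higher, among them *Syt1*, the fast calcium sensor, at 0.40 ± 0.05 (adjusted p = 7.80e-06), and 3 lower, among them *Sv2b* at -0.25 ± 0.05 (adjusted p = 0.0016). Of the RAB3 and MUNC13 relatives, regulators and effectors, 4 of 13 were lower and none higher. They included both subunits of the RAB3 GTPase-activating complex, *Rab3gap2* at -0.43 ± 0.09 (adjusted p = 0.00147) and *Rab3gap1* at -0.21 ± 0.06 (adjusted p = 0.00906), and the RAB3 exchange factor *Madd* at -0.23 ± 0.05 (adjusted p = 0.00215). Of 7 calcium channel subunits, where 25.5% of all genes were called, *Cacna1b* (-0.32 ± 0.08, adjusted p = 0.00527) and *Cacnb3* (-0.22 ± 0.06, adjusted p = 0.015) were lower.

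The genes most like *Rims3* and *Rab3b* across the 20 libraries were found by Pearson's r of log2(CPM + 0.5) over 14225 genes, as a description. For *Rims3* they were *Cit* (r = 0.94), which encodes citron kinase, the transcription factor genes *Cux2* (0.91), *Tshz2* (0.90) and *Tshz3* (0.87), and *Vwc2l* (0.87). *Cit* ranged from 13.5 to 79.9 CPM, and its r was 0.93 over the 17 libraries compared. For *Rab3b* they were *Efna5* (0.94), an ephrin ligand, *Timp2* (0.91), a metalloproteinase inhibitor, *Gabra3* (0.91), a GABA-A receptor subunit, *Nap1l5* (0.87) and *Cadm1* (0.86), a synaptic adhesion molecule. Without the 3 SIT libraries left out, r was 0.91 for *Efna5*, 0.84 for *Timp2* and 0.73 for *Nap1l5*. The libraries share group, cohort and depth, so these values carry no test.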

How the data were processed

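TRAP-seq counts of 20 libraries were analysed. Per the methods and the submitters' processing notes, the authors aligned reads with STAR 2.7.3a to GRCm38, removed duplicates with Picard 1.87, and counted read pairs on exons by gene and strand. The deposited values are whole-number counts without normalization. Columns carry mouse numbers, and the study's sample quality table gave the group of each. Another table has 24 columns that matched no label and were not used.

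Counts were normalized with TMM, filtered with filterByExpr and tested across all genes with the quasi-likelihood test of edgeR 4.0.16 (R 4.3.3), adjusted by Benjamini-Hochberg. An SE was the absolute log2 fold change divided by the square root of F. CPM used TMM over 20 libraries, and symbols, lengths and coordinates came from GENCODE for GRCm38. The 5 SIT libraries compared were those whose means matched 633 of 633 genes the study lists, among 24 subsets. Named genes were the 10 members, the called genes of 5 pathway lists (at most 5 per list and comparison), and the 5 most alike to *Rims3* and *Rab3b*. The members and lists were chosen with earlier results of these data known. The steps were tested on simulated data. DESeq2 1.42.0, RLE size factors, no filter, 1 fit over all libraries, all SIT libraries, left-out libraries and a mouse-number block were alternatives.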

Additional observations from a re-analysis of the deposited data

Results flagged for a closer look

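*Unc13b* in the sedentary SIT mouse NT7.2.3, 1 of the 3 libraries left out, was at 29.5 CPM, far from the other 3 sedentary SIT mice, which were at 18.7 to 20.2 CPM. It was the 1 such library in 20 groups of 4 examined, and chance gives about 1 in 20 groups.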

How the results depend on the processing

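The calls of members in the ELE comparisons changed with the libraries used. In SIT the count past the study's threshold was 2 in the 5 libraries compared, 5 with all 8 SIT libraries and 5 in 1 fit over all 20 libraries, and 1 to 2 when 1 library was left out, the 1 being without NT6.305. On the left it was 0, but 1 with DESeq2, with no filter on low counts and with the mouse-number block, and 0 to 1 when 1 library was left out. The right gave 1, and 0 in 1 fit over all 20 libraries, with 0 to 2 when 1 library was left out. Over all genes the same threshold gave 275 higher and 384 lower in the 5 SIT libraries, 398 and 947 with all 8, and 722 and 1607 in 1 fit. The left gave 194 and 170, 289 and 260 with DESeq2, 409 and 279 with no filter, and 101 and 109 in 1 fit. The right gave 131 and 213, and 246 and 468 with no filter. At an adjusted p under 0.05 the SIT counts were 0 in the 5 libraries, 7 and 7 with DESeq2, 36 and 69 with no filter, and 18 and 111 in 1 fit, and the right counts were 0, 7 and 7 with DESeq2, and 8 and 19 with no filter.

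Left against right, no member passed in any of these fits, and the sign of small log2 differences was not fixed. In sedentary mice alone *Rims1* was at 0.003685, *Rims3* at -0.001316, *Rab3c* at -0.04759 and *Unc13c* at -0.7396. In ELE mice alone *Rab3a* was at -0.01784, *Rab3b* at 0.149 and *Unc13b* at 0.003742, each of these 7 with the opposite sign to the value over 12 libraries. *Unc13c* was at 0.9687 in ELE mice alone. With 1 library left out the ranges that crossed 0 were -0.06139 to 0.004962 for *Rims1*, -0.07201 to 0.01822 for *Rims2*, -0.08543 to 0.2338 for *Rims3*, -0.05142 to 0.1166 for *Rims4*, -0.3833 to 0.1555 for *Rab3b*, -0.01074 to 0.06492 for *Rab3c*, -0.1817 to 0.008308 for *Unc13b* and -0.09755 to 0.3623 for *Unc13c*.

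For SIT against separate isolation, *Rab3a* and *Unc13a* kept their sign and passed in the 17 fits that leave out a library, as did *Rims4*. Signs turned for members that did not pass. *Rims1* was at 0.1183 in 1 fit over all 20 libraries and 0.1178 with all 8 SIT libraries, *Rims2* at 0.04516 and 0.04631, and *Unc13c* at 0.1645 and 0.1525. In sedentary mice alone *Rims2* was at 0.08008 and *Rims3* at 0.01798. In ELE mice alone *Rab3b* was at -0.2504 and *Rab3c* at -0.0784. *Rab3c* was also at -0.001455 with DESeq2, -0.001207 with RLE size factors and -0.01437 with no filter. With 1 library left out the ranges that crossed 0 were -0.1104 to 0.004538 for *Rims2*, -0.022 to 0.4216 for *Rab3b* and -0.03406 to 0.02971 for *Rab3c*. The cause of these changes was not tested.

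No paired analysis was possible by the labels' replicate numbers because the columns carry none. A fit with the mouse-number prefix as a block was run instead, chosen after the data were seen. Littermates were divided between conditions, but no source used here ties the prefix to a litter, and the correlations of deviations between mice of 1 prefix were 0.276, 0.0287 and 0.126 on the left and 0.286, -0.0933 and -0.121 on the right, not all above 0.1. That block gave 154 genes above and 178 below 0 past the threshold on the left, and 120 and 204 on the right. With the longest transcript as the length, medians moved to 14.1 CPM per kb for *Rims2*, 411 for *Rab3a*, 44.05 for *Rab3c*, 25.3 for *Unc13a* and 1.38 for *Unc13b*. The fits within NT6 mice, sedentary mice and ELE mice were also chosen after the data were seen. With 2 or 3 mice a group, and *Unc13c* at 74 to 577 counts, differences larger than the SEs given could also go undetected. A difference that did not pass is not shown to be absent.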
